A study of Caenorhabditis elegans with 9 samples.

Results

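Intestinal hydrolase genes of Caenorhabditis elegans were taken by name from 5 families: the aspartic proteases (asp), the cathepsin B-like cysteine proteases (cpr), the protist-type lysozymes (lys), the invertebrate-type lysozymes (ilys) and the saposin-like proteins (spp). A gene was a member where its symbol in the authors' tables of genes assigned to noncoding DNase I hypersensitive sites (DHS) began with one of these prefixes. This gave 23 members of 11433 genes in either stage's table. The families hold 72 protein-coding genes in the reference, so 31.9% of them were listed (95% exact interval 21.4 to 44.0), beside 54.2% of all 19983 coding genes.

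Wild-type N2 animals were studied whole at 2 stages: larvae in L1 arrest, the state in which newly hatched larvae wait without food, with 5 replicates (V to Z), and embryos of about 40 cells, with 4 replicates (A to D). In DNase-seq, nuclei are treated with DNase I, which cuts where chromatin is open, and the short pieces released are sequenced. The authors merged the replicates into 1 list per stage, so no value below has a spread between replicates and no test between the stages could be made. The number of reads behind each DHS is not given in the lists, and a site open in few cells cannot be told apart from a site weakly open in many.

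The intestine of the worm digests the bacteria it feeds on and is also the tissue most exposed to bacterial infection. Its secreted and lysosomal hydrolases serve both tasks: proteases degrade protein, lysozymes cleave the bacterial cell wall, and saposin-like proteins act on membranes, some of them by forming pores. All intestinal cells descend from a founder cell of the early embryo, and GATA factors such as ELT-2 bind upstream of many intestinal genes. Several family members also work outside the gut, in lysosomes of other tissues.

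Noncoding DHS were assigned to 16 of the 72 family genes in L1 arrest (22.2%, exact interval 13.3 to 33.6), beside 38.8% of all coding genes. In the embryo they were assigned to 22 (30.6%, interval 20.2 to 42.5), beside 52.4% of all coding genes. Both stages listed 15 family genes (20.8%), beside 37.1% of all. These intervals cover counting error only, and neighbouring genes of a family are not independent draws. In each of these counts the families lay below the share of all coding genes.

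Of the 18 aspartic protease genes, 8 had DHS in L1 arrest and 11 in the embryo. The 8 cathepsin B-like genes gave 2 in L1 arrest and 3 in the embryo, and the 10 protist-type lysozyme genes gave 1 in L1 arrest and 2 in the embryo. Among the 6 invertebrate-type lysozyme genes ilys-1 was listed, in L1 arrest, and the embryo table held none of the 6. The 30 saposin-like genes gave 4 in L1 arrest and 6 in the embryo. The aspartic proteases were thus the family with the largest listed share. Alone among the 5 families they lay above the shares of all coding genes, 38.8% in L1 arrest and 52.4% in the embryo. This rests on 8 and 11 of 18 genes. No interval was computed for the listed share of a family, and a difference from all coding genes was not tested. The saposin-like and lysozyme families were mostly without a listed DHS. These family counts are by symbol, while those of all coding genes are by sequence name. Left out of the family counts were cpr-8, spp-25 and spp-31, listed in both stages by sequence name, and spp-29, so listed in the embryo.

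Well-studied defence genes were among those without a DHS under their symbol in either table. They include lys-7 and lys-8, lysozymes with roles in resistance to bacterial infection, and spp-1 and spp-5, which encode pore-forming caenopores. Not all defence genes were unlisted, as lys-1, induced by bacterial infection, had DHS in both stages. The cathepsin B-like protease gene cpr-6 was also without a DHS under its symbol. The 4 genes spp-25, spp-29, spp-31 and cpr-8 are outside the naming rule because the tables list them by sequence name with no symbol. With them, 27 of the 72 family genes had a DHS (37.5%), which still lies below the 54.2% of all coding genes.

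The 23 members carried 23 DHS in L1 arrest and 46 in the embryo. Listed entries are counted here and below, so 2 intronic parts of 1 embryo DHS of spp-8 count as 2. The L1 part was 33.3% of the sum (interval 22.4 to 45.7), beside 37.6% for all genes. Intervals over DHS, here and below, cover counting error only, and DHS of 1 gene are not independent draws. An embryo list longer than the L1 list was common to the whole data, and the members' split lay close to that background. With the embryo list shortened to the L1 length by score, the L1 part was 54.8% in members and 50.0% in all genes, so the members' side of the background turned. Within the members 17 had more DHS in the embryo, 5 had equal numbers and 1, ilys-1, had more in L1 arrest. A member with any DHS had a median of 1 in L1 arrest and 2 in the embryo, the same medians as all coding genes with any DHS. Just 1 DHS was listed for 10 of 16 members in L1 arrest (62.5%; all genes 55.0%) and for 10 of 22 in the embryo (45.5%; all genes 45.9%).

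**Figure D1:**
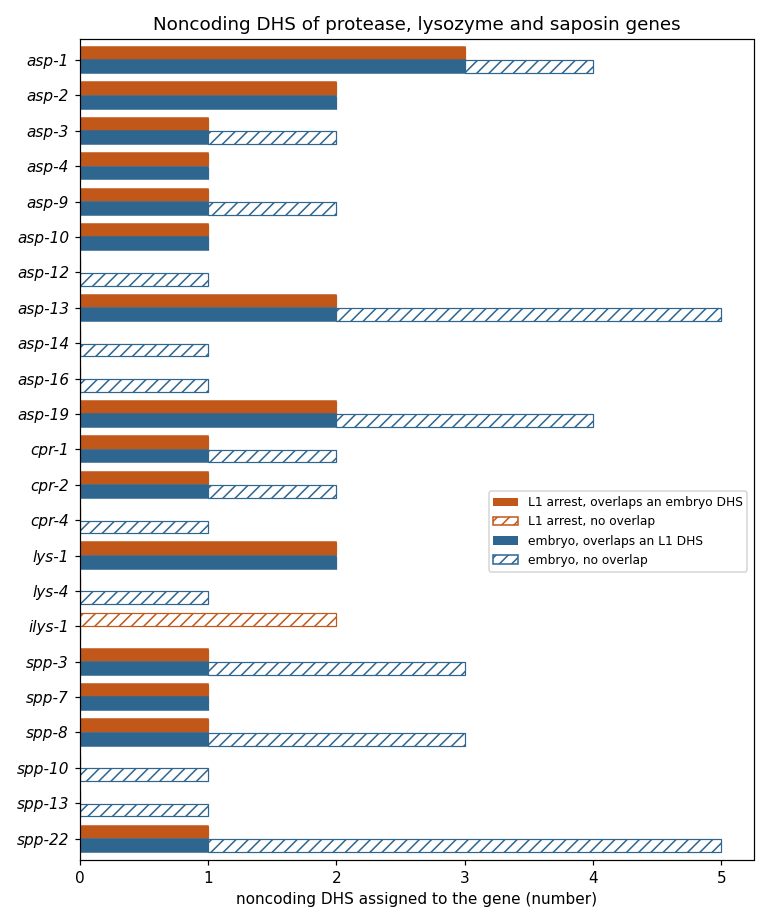
Number of noncoding DHS assigned to each of the 23 members, with L1 arrest above embryo for each gene. Filled bar parts overlap a DHS of the other stage and hatched parts do not: only ilys-1 has hatched L1 bars (2 DHS), while asp-13 and spp-22 reach 5 embryo DHS.

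The plot of DHS per gene shows 3 kinds of members. The largest kind had DHS in both stages, with each L1 DHS overlapping an embryo DHS. Another kind had embryo DHS alone and comprised 7 genes: asp-12, asp-14, asp-16, cpr-4, lys-4, spp-10 and spp-13. The background of coding genes with embryo DHS alone was 15.3%, and 7 of 72 family genes lie below it. The last kind was L1 DHS alone, which held ilys-1 (background 1.75%).

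Aspartic proteases of this family resemble cathepsin D and pepsin. ASP-1 is made in the intestine. Its gene carried 3 DHS in L1 arrest and 4 in the embryo, all intergenic. The L1 sites lay at chrV:19047521-19047670, chrV:19054101-19054250 and chrV:19055241-19055390 (ce10), at 1454, 3276 and 4416 bp from the gene. Their scores, ranked within the L1 list of noncoding DHS, stood at percentiles 48.4, 43.6 and 50.5, near the middle of the list. All 3 overlapped embryo sites, which stood at percentiles 57.7, 35.0 and 68.1 of the embryo list. The fourth embryo site, chrV:19051481-19051630, lay 656 bp from asp-1 at percentile 62.4 and had no L1 counterpart, the nearest L1 DHS being 810 bp away. Distances placed 1 L1 site on the low-coordinate side of the gene and 2 on the other side. asp-16, a near neighbour of asp-1 in a row of aspartic protease genes, had an embryo DHS with 64 bp of noncoding sequence in an intron.

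At asp-13 2 sites in L1 arrest stood against 5 in the embryo. All were intergenic, and all distances were measured from the same edge of the gene, so the sites form a series on its high-coordinate side. The L1 sites, chrV:8644781-8644930 and chrV:8648361-8648510, lay 1556 and 5136 bp away at percentiles 54.01 and 3.38 of the L1 list. Their embryo counterparts lay at 1556 and 5116 bp and stood higher in their own list, at percentiles 74.9 and 51.1. The 3 further embryo sites lay at 456, 6716 and 10616 bp with percentiles 24.5, 33.9 and 11.3. The site at 10616 bp, chrV:8653841-8653990, was the most distant of any member.

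asp-19 carried the strongest DHS of all members in both stages. The site chrV:18724801-18724950, 3754 bp from the gene, had the same start and end in L1 arrest and in the embryo. Its deposited score was 1223 in the L1 list (percentile 97.8) and 2425 in the embryo list (percentile 99.2), a value whose scaling the sources used here do not give. asp-19 also had a promoter site, taken here as a DHS outside introns and under 300 bp from the assigned gene. This site, chrV:18728581-18728703 in L1 arrest, touched the gene and stood at percentile 82.9 of the L1 list, beside 58.4 for its embryo counterpart. Embryo sites at 3234 and 2574 bp had no L1 overlap and stood at percentiles 37.8 and 12.9. The members' open chromatin near asp-19 thus comprised a strong distant site and a promoter site seen in both stages, with weaker embryo sites between them.

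asp-3 encodes a lysosomal protease needed, together with that of asp-4, for the necrotic death of neurons. The asp-3 site chrX:6794601-6794750 lay 1886 bp from the gene and stood at percentile 91.8 of the L1 list and 94.1 of the embryo list. A further embryo site lay at 3446 bp (percentile 52.5) with no L1 overlap. asp-4 had a promoter site that touched the gene in each stage, with 61 bp of noncoding sequence in L1 arrest (percentile 36.0) and 41 bp in the embryo (percentile 70.2). With the site of asp-19, that of asp-3 made up the members' sites in the highest 10% of each stage's list.

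Introns held all sites of asp-2 and asp-10. asp-2 had the intronic sites chrV:9200181-9200330 and chrV:9200941-9201090 in both stages with unchanged boundaries, at percentiles 48.3 and 57.1 of the L1 list and 26.6 and 11.7 of the embryo list. asp-10, named hrg-7 in the reference and known for an intestinal protein that acts in haem signalling between tissues, had 1 intronic site in each stage. That site stood low in both lists, at percentile 1.49 in L1 arrest and 19.2 in the embryo. asp-9 had an intergenic site 2856 bp away in L1 arrest (percentile 35.3), whose embryo counterpart ranked at percentile 2.25, and a second embryo site 599 bp away (percentile 34.0). asp-12 and asp-14 had an embryo DHS each with 53 and 42 bp of intronic sequence, at percentiles 1.82 and 30.6. Among the aspartic proteases without DHS in L1 arrest, every embryo site was therefore a short intronic part of a DHS.

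**Figure D2:**
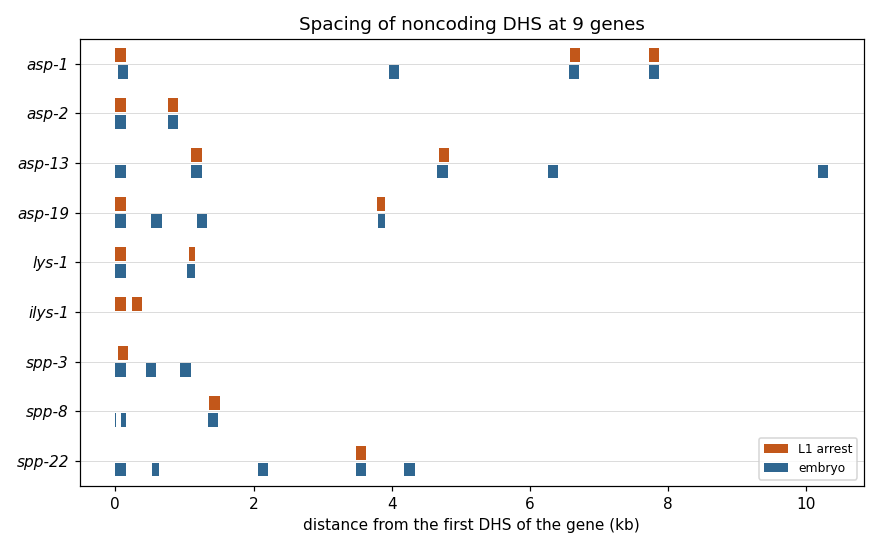
Position of noncoding DHS at 9 member genes, in kb from the lowest-coordinate DHS of the gene in either stage, with L1 arrest above embryo and each block drawn to its noncoding width. The genes are those with 4 or more DHS over both stages or an arrest-associated DHS. At asp-19 and lys-1 the L1 blocks have embryo blocks at nearly the same place, asp-13 adds embryo blocks out to 10 kb, and ilys-1 has L1 blocks alone.

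Of the cathepsin B-like proteases, cpr-1 is transcribed in the gut. It had 1 DHS in L1 arrest, chrV:11973881-11974030, 1486 bp from the gene at percentile 37.1. In the embryo the counterpart stood at percentile 58.0, and a promoter site 26 bp from the gene, chrV:11975341-11975490, stood at percentile 1.98 without overlap in L1 arrest. cpr-2 had an intergenic site 420 bp away in L1 arrest (percentile 4.36), its embryo counterpart at 380 bp (percentile 45.7) and a further embryo site at 880 bp (percentile 9.08). cpr-4, whose protein is secreted, had an embryo site 2396 bp away at percentile 18.6, and the nearest L1 DHS was 3030 bp from it. None of the family's 2 L1 sites and 1 of its 5 embryo sites stood above percentile 50 of its list.

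The protist-type lysozymes resemble lysozymes of amoebae, and lys-1 is induced by bacterial infection in the intestine. lys-1 had the same layout in both stages, an intergenic site 998 bp away and a promoter site touching the gene. The intergenic site, chrV:10276681-10276830, stood at percentile 39.2 of the L1 list and 64.6 of the embryo list. The promoter site covered chrV:10277741-10277827 in L1 arrest (percentile 53.97) and chrV:10277721-10277827 in the embryo (percentile 82.6). No member other than asp-19, asp-3 and lys-1 had an embryo site above percentile 80.

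lys-4 had no L1 site and 1 embryo site, 66 bp of noncoding sequence at chrIV:11623125-11623190 that touched the gene. It stood at percentile 31.9 and held no footprint. The nearest L1 DHS was 1330 bp away. This made lys-4 the second listed lysozyme of its type, with the other 8 genes, lys-7 and lys-8 among them, unlisted.

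ilys-1, an invertebrate-type lysozyme gene, was the member with L1 sites alone. Its sites were chrIV:2471941-2472090, 492 bp from the gene at percentile 18.9, and chrIV:2472181-2472330, 732 bp away at percentile 12.2. The nearest embryo DHS lay 1230 and 1470 bp from them. Both are in the authors' list of arrest-associated DHS, those found in L1 arrest and not in the embryo, and they were the members' 2 entries in it: 8.70% of 23 L1 sites (interval 1.07 to 28.0), beside 11.4% of all L1 sites. Against the embryo list shortened to the L1 length, 8 of the 23 L1 sites had no embryo overlap (34.8%), beside 24.0% of all L1 sites, so the members then lay above the background. By gene, 1 of 72 family genes had an arrest-associated DHS, beside 7.18% of all coding genes. Both ilys-1 sites ranked in the lowest 20% of the L1 list, and the first held no footprint.

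Saposin-like proteins share a fold that binds lipid membranes. spp-22 had 1 site in L1 arrest and 5 in the embryo. The shared site chrX:7214921-7215070, 966 bp from the gene, had the same boundaries in both stages and stood at percentile 12.3 of the L1 list and 69.1 of the embryo list. Its other embryo sites were a promoter site at 118 bp (percentile 13.6), 2 intronic sites (percentiles 29.5 and 43.8) and an intergenic site at 1666 bp (percentile 67.8). No other member had embryo sites in all 3 location classes.

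spp-3 had 1 L1 site, chrX:7313321-7313470, 1414 bp from the gene at percentile 33.0. The embryo counterpart stood at percentile 74.1, and 2 further embryo sites at 1014 and 514 bp stood at percentiles 0.0244 and 22.2. The site at 1014 bp was the lowest ranked of all members. spp-8 had an intergenic L1 site 1011 bp away at percentile 59.0, the highest of the family in L1 arrest, with its embryo counterpart at percentile 73.1. The other 2 embryo entries of spp-8 are intronic parts of 3 and 64 bp cut from the same whole DHS, so they are not separate openings.

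spp-7 had a promoter site in each stage, chrIV:5415881-5416030 in L1 arrest (percentile 1.08) and chrIV:5415921-5416070 in the embryo (percentile 32.3). The L1 site was the weakest L1 site of any member. spp-10, whose protein resembles human prosaposin, had an embryo promoter site 153 bp away (percentile 27.4), with the nearest L1 DHS 7690 bp from it. spp-13 had an embryo intronic part of 52 bp (percentile 27.7). spp-10 and spp-8 flank the bHLH gene hlh-12 in the reference gene order, and no DHS of either was assigned to a second gene.

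By location, 3 of 23 L1 sites of the members were intronic (13.0%, interval 2.78 to 33.6), beside 40.8% of all L1 sites. In the embryo 11 of 46 were intronic (23.9%, interval 12.6 to 38.8), beside 44.3% of all, with the 2 parts of 1 spp-8 DHS counted separately. Promoter sites made up 4 of 23 in L1 arrest (17.4%; all 18.7%) and 8 of 46 in the embryo (17.4%; all 19.1%). Intergenic sites were 16 of 23 in L1 arrest (69.6%, interval 47.1 to 86.8; all 40.5%) and 27 of 46 in the embryo (58.7%, interval 43.2 to 73.0; all 36.7%). The members thus had intron shares below, intergenic shares above and promoter shares close to those of all sites in both stages. Among sites of at least 150 bp, promoter sites were 1 of 20 in L1 arrest (5.0%; all 15.5%) and 4 of 35 in the embryo (11.4%; all 16.7%). The intron shares at that width were 15.0% in L1 arrest (all 33.3%) and 11.4% in the embryo (all 32.8%). With a promoter limit of 500 bp and all widths, promoter shares were 26.1% in L1 arrest (all 23.4%) and 21.7% in the embryo (all 23.5%).

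The intronic sites themselves were of unequal extent. In L1 arrest the 3 intronic sites were full 150 bp sites, in asp-2 and asp-10. Of all 6610 intronic L1 sites, 2342 were under 150 bp. In the embryo 7 of 11 were parts under 150 bp of a DHS that was 150 bp wide in the full list. Of all 11895 intronic embryo sites, 5505 were under 150 bp, so short intronic sites were common in the whole data. Among sites outside introns the median distance to the gene was 1212.5 bp in L1 arrest and 1014 bp in the embryo, beside 847.5 and 769 bp for all L1 and embryo sites. More than 1000 bp away lay 11 of 23 L1 sites (47.8%; all 27.0%) and 18 of 46 embryo sites (39.1%; all 24.4%).

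**Figure D3:**
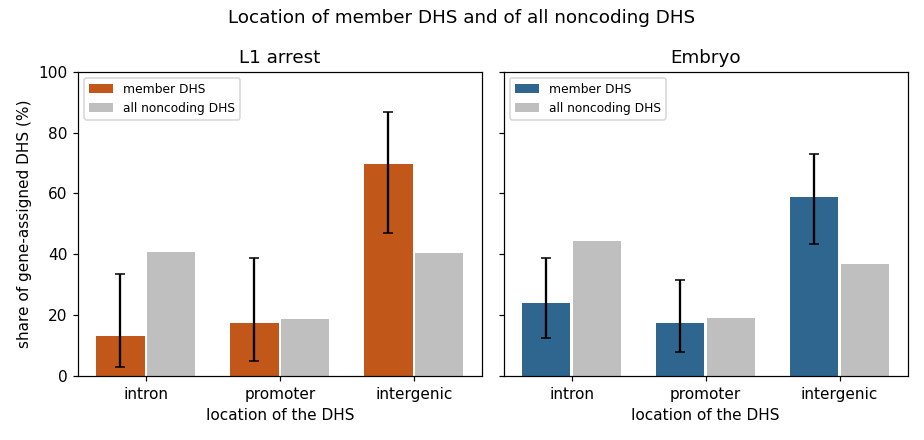
Share of gene-assigned noncoding DHS in introns, promoters and intergenic sequence, as percent of DHS, for members (coloured bars with 95% exact binomial intervals) and for all DHS of the stage (grey), in L1 arrest (left) and embryo (right). Member intergenic bars reach 69.6% in L1 arrest and 58.7% in the embryo, above the grey bars at 40.5% and 36.7%.

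Scores of the members lay somewhat lower in their lists than those of all sites. The median percentile was 39.2 in L1 arrest (range 1.08 to 97.8) and 33.1 in the embryo (range 0.0244 to 99.2), beside medians of 50.0 and 49.9 for all L1 and embryo sites. Above percentile 50 stood 8 of 23 L1 sites (34.8%; all 50.0%) and 17 of 46 embryo sites (37.0%; all 49.9%). The lowest 20% of the list held 7 of 23 L1 sites (30.4%; all 20.0%) and 11 of 46 embryo sites (23.9%; all 20.0%). In the highest 10% were 2 sites of each stage, those of asp-19 and asp-3 (all 10.0%).

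**Figure D4:**
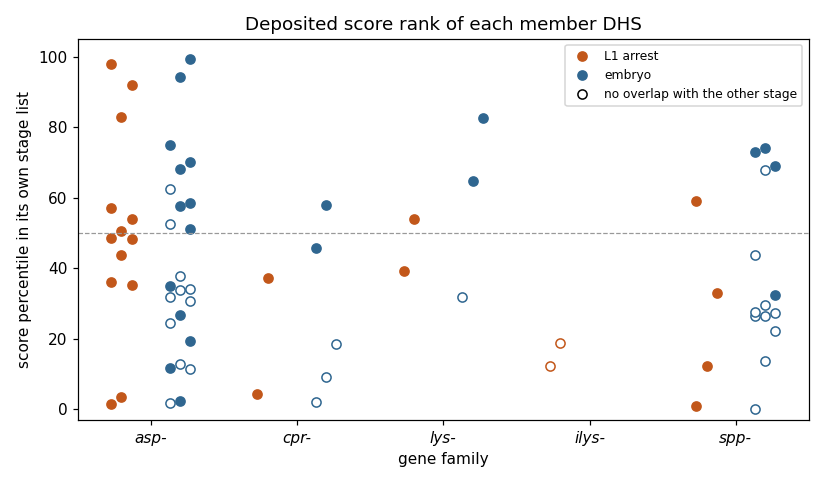
Percentile of the deposited score of each member DHS within its own stage's list, by family, with L1 arrest left of embryo. Filled points overlap a DHS of the other stage and open points do not, and the dashed line marks percentile 50. The open ilys points lie below 20, and the points above 90 belong to asp-19 and asp-3.

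In L1 arrest 21 of 23 member sites overlapped an embryo site (91.3%, interval 72.0 to 98.9), beside 88.6% of all L1 sites. In the embryo 21 of 46 overlapped an L1 site (45.7%, interval 30.9 to 61.0), beside 53.4% of all embryo sites. The L1 share lay near its background and the embryo share somewhat below, with a background value inside the interval. With the embryo list shortened to the L1 length both turned: the overlap was 65.2% of member L1 sites, beside 76.0% of all, and 78.9% of member embryo sites, beside 75.9% of all. Embryo sites of the members that overlapped an L1 site had a median percentile of 58.4, and those without overlap 27.4, beside 70.9 and 27.4 for all embryo sites. Of the 25 embryo sites without overlap, 3 stood above percentile 50: those of asp-1 at 656 bp, asp-3 at 3446 bp and spp-22 at 1666 bp.

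Of the 7 members with embryo sites alone, 5 had a noncoding part of 42 to 66 bp and no footprint in it (asp-12, asp-14, asp-16, lys-4 and spp-13). cpr-4 and spp-10 had a full 150 bp site with at least 1 footprint. The nearest L1 DHS ranged from 527 bp away (spp-13) to 7690 bp away (spp-10). The embryo-alone group of members thus rested mostly on short parts of DHS whose remainder is not in the noncoding list.

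To compare stages without the difference in list length, the sites open in both stages were ranked among themselves in each stage. Across the members' 21 such pairs the L1 rank was the higher in 10 (47.6%), beside 45.1% of all 14353 pairs. The median difference, L1 minus embryo, was -0.94 percentile points in members and -1.19 in all pairs. The members' pairs therefore stood about as often higher in either stage, over a range from -35.8 to 52.4 points.

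Aspartic proteases held the pairs with the largest differences toward L1 arrest, and others of them differed toward the embryo. The asp-2 introns ranked at 54.8 in L1 arrest against 2.36 in the embryo, and at 46.0 against 7.20. The asp-19 promoter ranked at 81.6 in L1 arrest against 31.9 in the embryo, and asp-9 at 33.2 against 0.34. An asp-1 site differed by 29.9 points in the same direction. In the other direction, spp-22 ranked at 11.2 in L1 arrest against 47.0 in the embryo, spp-3 at 31.0 against 55.1 and the distant asp-13 site at 3.01 against 23.6. The lys-1 promoter ranked at 51.7 in L1 arrest against 69.6 in the embryo, and asp-4 differed by -14.9 points. The strong sites of asp-19 and asp-3 differed by -0.94 and 1.58 points and so kept nearly the same rank in both stages.

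**Figure D5:**
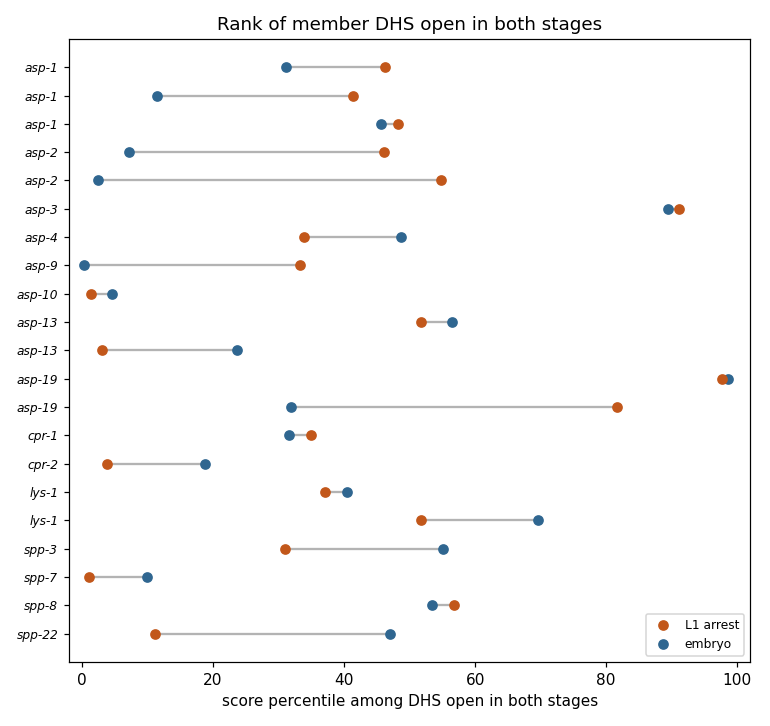
Score percentile of the 21 member DHS open in both stages, ranked among all DHS open in both, for L1 arrest and embryo, with 1 row per DHS and a line joining the stages. The longest lines with L1 arrest to the right belong to asp-2 and asp-19, and the longest with the embryo to the right belongs to spp-22.

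Footprints are short stretches inside a DHS that are protected from cutting, called by the authors, and overlapping or touching ones were merged here. Of the members' sites 21 of 23 held a footprint in L1 arrest (91.3%; all 83.9%) and 39 of 46 in the embryo (84.8%, interval 71.1 to 93.7; all 81.9%). Sites of exactly 150 bp held on average 2.45 footprints in L1 arrest and 2.34 in the embryo, beside 2.33 and 2.54 in all such L1 and embryo sites. Of the 7 embryo sites with no footprint 6 were under 150 bp, and the seventh was that of spp-7, which had none in L1 arrest either. Footprint content of the members was close to that of all sites of equal width.

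In the 21 shared pairs, 38 of 52 L1 footprints overlapped an embryo footprint (73.1%), beside 78.1% over all DHS open in both stages. The strong asp-19 site held 4 footprints in L1 arrest, covering 109 bp, and 4 in the embryo, covering 92 bp, and each L1 footprint overlapped an embryo one. Its best footprint score, where more negative is stronger, was -9.18 in L1 arrest and -10.7 in the embryo. The lys-1 promoter held footprints of 9 and 37 bp in L1 arrest (best score -4.43), where the embryo had 1 merged stretch of 71 bp (best score -8.67). The scaling of footprint scores is not given, so these values do not show stronger footprints in either stage. Other pairs shared fewer: at spp-3 the L1 footprint overlapped neither embryo footprint, and at asp-4 the footprint of each stage lay apart.

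Sequence motifs were found by the authors in the embryo DHS, and their table lists genes under 57 motif headings, 3 of which name a member. The sources used here do not give how genes were put under a heading. The motifs are shown because they are the sequence patterns tied to members in the deposited lists, with N standing for C or T.
spp-3, intergenic set: CTNCAGCTCC
asp-10, intron set: CGNGGCGAGAC
asp-10, noncoding set: CGTGGNGAGAC
The first heading lists 27 genes, and those of asp-10 list 103 and 199. asp-10 had 1 embryo DHS, the intronic site at percentile 19.2. No other member appears under any heading.

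Many of the genes lie next to others of their family. Of the 72, 35 sit in 12 runs of neighbouring family genes and 37 stand alone. A DHS was listed for 8 of the 35 in runs (22.9%, interval 10.4 to 40.1) and for 15 of the 37 alone (40.5%, interval 24.8 to 57.9). These intervals overlap. With the 4 genes listed by sequence name the counts were 9 of 35 (25.7%) and 18 of 37 (48.6%).

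With 8 of 35 genes listed over 12 runs, runs with 1 listed gene are to be read beside that low share. Whether DHS gather on 1 gene of a run was not tested. In 6 runs exactly 1 gene had a DHS under its symbol: spp-3 of 5 saposin-like genes with spp-2, spp-6, spp-4 and spp-5, lys-1 of the row with lys-2 and lys-3, lys-4 of the row with lys-5 and lys-6, ilys-1 of the row with ilys-3 and ilys-2, asp-12 between asp-6 and asp-5, and asp-19 beside asp-18. In 1 run 2 genes had one, asp-16 and asp-1, and in 5 runs no gene was listed by symbol. The run of cpr-5 and cpr-8 is among these 5, and with cpr-8 counted by its sequence name 7 runs had exactly 1 gene with a DHS and 4 had none. Each DHS in such a row was assigned to 1 gene by the authors, and which gene it acts on was not tested. By chromosome, members were 6 of 15 family genes on IV, 11 of 32 on V and 6 of 16 on X, beside 52.4%, 42.9% and 67.4% of all coding genes there. None of the 9 family genes on I, II and III was listed under its symbol, beside 56.9%, 55.4% and 59.5% of all coding genes there. Of these 9, spp-25 on I was listed by sequence name.

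Genes that regulate or work with the hydrolases were counted in the same way, to be read beside the 38.8% of all coding genes with DHS in L1 arrest and 52.4% in the embryo. Of 10 gut regulators, 3 had DHS in L1 arrest and 7 in the embryo. elt-2, the main GATA factor of the intestine, had none in L1 arrest and 1 in the embryo, and elt-7, which acts with it, had 3 in each stage, 1 of them arrest-associated. hlh-30, a TFEB-type factor of lysosomal and defence genes, had 11 in L1 arrest and 14 in the embryo, more than any member. skn-1, which specifies the endoderm and later drives detoxification genes, had 2 in L1 arrest and 4 in the embryo.

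Of 22 other lysosome and hydrolase genes, 10 had DHS in L1 arrest and 16 in the embryo, with 34.0% of their DHS in L1 arrest, near the 33.3% of the members. Among them cpl-1, the cathepsin L gene, had none in L1 arrest and 2 in the embryo, and cpz-1, a cathepsin Z gene, had 1 in each. glo-1, which is needed for gut granules, had 2 in L1 arrest and 4 in the embryo. Of 14 defence signalling genes, 11 had DHS in each stage, with 34 in L1 arrest and 64 in the embryo. tir-1, the adaptor upstream of the p38 pathway, had 9 in L1 arrest and 20 in the embryo. Over every gene of the list, those without DHS included, the defence signalling genes had a median of 1.5 DHS in L1 arrest and 2.5 in the embryo. On the same basis the lysosome and hydrolase genes had medians of 0 in L1 arrest and 1 in the embryo. The medians of members and of all coding genes given earlier cover only genes with any DHS, so they are not comparable with these.

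Whole animals were used, so DHS of intestinal genes were read among those of other tissues. Of 12 intestine marker genes found in the reference, 6 had DHS in L1 arrest and 9 in the embryo, beside 38.8% and 52.4% of all coding genes in L1 arrest and the embryo. act-5, the actin of the intestinal brush border, had 10 in L1 arrest, 3 of them arrest-associated, and 8 in the embryo. It was the only intestine marker with more in L1 arrest, and the whole list had 17 in L1 arrest and 20 in the embryo. elt-2, end-1, ifb-2 and vit-2 had more in the embryo, and the other matched markers had equal numbers or none. Markers of muscle, neurons, epidermis and germ line had DHS in 6 of 9 genes in L1 arrest and 7 of 9 in the embryo. Loci of both kinds were open in both stages, and their part in the members' counts was not tested.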

How the data were processed

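DNase-seq libraries of 5 L1 arrest and 4 embryo samples were grouped by the stage in their labels. Reads were 50 bp in 3 libraries of each stage and 76 bp in 2 L1 and 1 embryo libraries, per the labels. FastQC, Bowtie 1.0.0, SAMtools and ce10 are named in the submitters' processing notes. The authors called DHS with HOTSPOT version 3, filtered them at an IDR level of 0.1 and called footprints with DNase2TF at an FDR of 0.05, per the series design text. The deposited score of each DHS was used for ranks within a list, as mid-rank percentiles among 16084 L1 and 26644 embryo noncoding DHS. Raw DHS scores are printed for the strongest asp-19 site. Footprint scores are printed as deposited for named sites and were not ranked. Neither kind of score was compared as a level between stages.

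Members were taken by symbol from the gene tables (16200 L1 and 26872 embryo entries), and genes were matched to the WBcel235 reference by sequence name, for names, coding status and neighbours only. Overlap meant at least 1 bp, and footprints that overlapped or touched were merged. Exact intervals at 95% came from scipy 1.17.1 under Python 3.11.15. The overlap, merging and nearest-distance steps were tested on simulated genomic positions. The members, gene lists and comparisons were chosen with earlier results of these data known. Any member with a DHS could be named, and full values went to the 12 with most DHS, those with arrest-associated or L1-alone DHS and the 2 highest scoring per family and stage. The planned motif search in promoters was not run, as no genome of the files' build was used here. Alternatives changed the score limit, list length, width, distance, overlap, gene assignment, promoter limit and member rule. Merged signal tracks were not analysed here.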

Additional observations from a re-analysis of the deposited data

How the results depend on the processing

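The 13 results were recomputed under 10 alternatives, which gave 86 values, 65 within the error or limit of the reported value and 21 outside. With only DHS above percentile 50, members with DHS were 7 of 72 in L1 arrest (all coding genes 23.8%). They were 10 in the embryo (all 34.0%) and 6 in both stages (all 22.0%). The overlap was 100% of L1 (all 92.6%) and 82.4% of embryo sites (all 82.7%). The footprint share was 100% in each stage, beside 92.4% of all L1 and 91.5% of all embryo sites. The embryo intron share was 0 (all 41.7%) and the arrest-associated share 0 (all 7.40%). With the embryo list shortened to the L1 length by score, embryo members were 11 of 72 (all coding genes 38.5%). The L1 part of the members' DHS was then 54.8% (all 50.0%). The overlap was 65.2% of L1 (all 76.0%) and 78.9% of embryo sites (all 75.9%). The embryo intron share was 5.26% (all 42.3%) and the embryo footprint share 100% (all 89.6%). The arrest-associated share was 34.8% (all 24.0%). The L1 part, both overlaps and the arrest-associated share thus changed sides relative to all sites. With introns or sites within 1000 bp, members were 9 in L1 arrest (all coding genes 33.5%) and 8 in both (all 31.7%). The embryo intron share was 39.3%, still below all sites (58.6%). There the L1 overlap was 83.3% (all 88.01%) and the arrest-associated share 16.7% (all 11.99%). Promoter shares were 33.3% in L1 arrest (all 25.6%) and 28.6% in the embryo (all 25.2%). The embryo footprint share was 75% (all 78.2%). The L1 overlap, arrest-associated, promoter and embryo footprint values stayed within their limits but changed sides relative to all sites. With sites of at least 150 bp, the embryo intron share was 11.4% (all 32.8%) and the embryo footprint share 97.1% (all 93.4%). The L1 promoter share was then 5.0% (all 15.5%). These settings remove sites by construction, and beyond that the cause was not tested. Taking members by reference symbol, chosen after seeing the data, moved no result past its limit. It gave 19 of 72 family genes in L1 arrest (all coding genes 38.8%) and 26 in the embryo (all 52.4%). No paired analysis was possible because the replicate letters are not shared between the stages and the lists are merged, and for the same reason no replicate could be left out. The depth behind each DHS is unknown, so an unlisted site is not shown to be closed.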
